A study of Mus musculus with 48 samples.

Results

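The 35 genes described here code for proteins that signal DNA damage or repair it, and were taken by name from the 48526 genes of the table. They were measured by RNA sequencing in microglia, the resident macrophages of the brain, sorted on Cx3cr1 from the hippocampus of juvenile C57BL/6 mice. At postnatal day 21 the mice received 8 Gy of X-rays to the whole brain as a single dose (IR) or were sham controls (SH). Microglia were collected 2h, 6h, 1d or 1w afterwards, with 6 mice in each of the 8 groups and 1 library per mouse. The sham groups were collected at the same times, so each comparison is between irradiated and sham mice of 1 time. Sex is not stated in the labels used here. All levels are reads scaled to a library of 1000000 reads on genes (RPM), from read numbers recovered out of the deposited table.

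Ionizing radiation breaks DNA strands. Breaks on both strands are sensed by the complex that holds Rad50 and Nbn, which activates the kinase Atm, while exposed single-stranded DNA activates Atr through Topbp1. These kinases signal through Chek1 and Chek2, mark chromatin at the break and act on p53. The break is then rejoined by end joining or copied from the sister chromatid by homologous recombination, which is used mainly by dividing cells. Base damage, bulky lesions and interstrand crosslinks have separate routes, and specialised polymerases such as Polk copy past lesions that remain.

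Of the 35 genes, 31 were abundant enough for testing and 7 passed the test at 1 or more times. Of all 11076 genes tested, 23.9% passed at 6h alone, and the share that passed at 1 or more times was not counted. The upstream sequences of the 3 of these 7 genes that rose at 2h are shown because they are the stretches next to which these transcripts begin. They are the RefSeq promoter sequences (GRCm38.p6), up to 250 bases before the start and cut back to the bases that lie in no annotated exon, written 5′ to 3′ on the strand of the gene. For Polk this is chr13:96542580-96542617 on the minus strand, 38 bases, for Chek2 chr5:110839778-110839978 on the plus strand, 201 bases, and for Ercc5 chr1:44147494-44147743 on the plus strand, 250 bases. Capitals mark a match to TTTCCCGC or TTTGGCGC, letters bound by E2F factors, searched on both strands. Of these stretches, that of Chek2 holds one.
Polk: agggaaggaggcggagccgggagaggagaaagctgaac
Chek2: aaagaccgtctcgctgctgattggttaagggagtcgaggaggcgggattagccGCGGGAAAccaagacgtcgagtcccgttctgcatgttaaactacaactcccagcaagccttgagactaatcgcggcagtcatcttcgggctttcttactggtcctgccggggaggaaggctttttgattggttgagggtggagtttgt
Ercc5: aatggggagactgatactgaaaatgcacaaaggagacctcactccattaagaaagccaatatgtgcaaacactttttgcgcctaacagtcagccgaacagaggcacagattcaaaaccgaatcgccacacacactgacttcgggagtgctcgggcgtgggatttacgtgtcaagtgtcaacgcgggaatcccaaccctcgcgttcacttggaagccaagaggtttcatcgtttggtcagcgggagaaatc
The RefSeq table held promoters for 27 of the 35 genes, 30 promoters of 300 bases in all, from 250 bases before to 50 after the start. Those E2F letters were in 4 of the 30 (13.3%), belonging to Chek2, Brca2, Xrcc6 and Mdc1, and in 1.56% of all 32851 promoters in the table. The p53 half-site was in 1 of the 30 (3.33%), at a second, internal start of Polk whose upstream bases are chr13:96519188-96519437, and in 8.36% of all promoters. A match describes letters in this window only.

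Libraries held 175382 to 3856777 reads on genes (median 2212424), and 3 held fewer than 1000000. On the first principal component, sham 6h libraries 1 to 4 lay between -55.5 and -48.2, in the range of the 12 libraries of 2h (-57.3 to -9.65). The other 32 libraries, which include sham 6h libraries 5 and 6 and all irradiated 6h libraries, lay between -0.669 and 49.9. For this reason the members called at 6h, and some of the other genes, have a second value against sham libraries 5 and 6 only. The 6h values printed without one rest on all sham 6h libraries. Summed microglia markers ranged from 22008 to 46283 RPM and no marker of that list was at 0 in any group. They were lower in every irradiated than in every sham library at 6h (30654 to 33858 against 39864 to 43990 RPM) and at 1d (22008 to 31974 against 32643 to 42286 RPM). The p53 target Cdkn1a, a cell cycle inhibitor, rose at all 4 times, by 6.28, 6.09, 5.61 and 4.94 on the log2 scale (limma, adjusted p of 1.53e-16 or lower).

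Few of the 31 tested members passed the test at any 1 time, and most of these calls lay within the first day. Over all genes tested, the fewest calls were at 1w. A member that did not pass was not shown to be unchanged. At 2h, 3 of the 31 tested members rose (Polk, Chek2 and Ercc5) and none fell, where 11.0% of all 11076 genes passed the test, 5.51% higher and 5.47% lower. Without the adjustment, 7 members had p under 0.05 at 2h, but the share of all genes at that level was not counted. At 6h, Chek2 and Polk rose while Prkdc, Parp1 and Topbp1 fell, against 23.9% of all genes called, 14.0% higher and 9.89% lower. At 1d only Polk passed, higher (5.9% of all genes called, 3.63% higher and 2.27% lower). At 1w only Trp53bp1 passed, also higher (4.16% of all genes called, 2.26% higher and 1.91% lower). The shares of members called were thus near or below those of all genes at each time. The median log2 change of the 31 members was 0.14 at 2h, -0.36 at 6h, -0.03 at 1d and 0.23 at 1w, beside -0.03, 0.08, 0.02 and 0.07 over all genes tested. With sham libraries 5 and 6 alone, the 6h median of the members was -0.09, and 10 of the 31 had the opposite sign, none of them called with either set. Of these, Atm, Nbn, Mdc1, Rnf168, Xrcc4, Parp2 and Rrm2b went from negative to positive, and Rnf8, Xrcc6 and Rad52 from positive to negative. In sorted bulk samples, fewer cells of a type and less RNA per cell cannot be told apart.

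**Figure D1:**
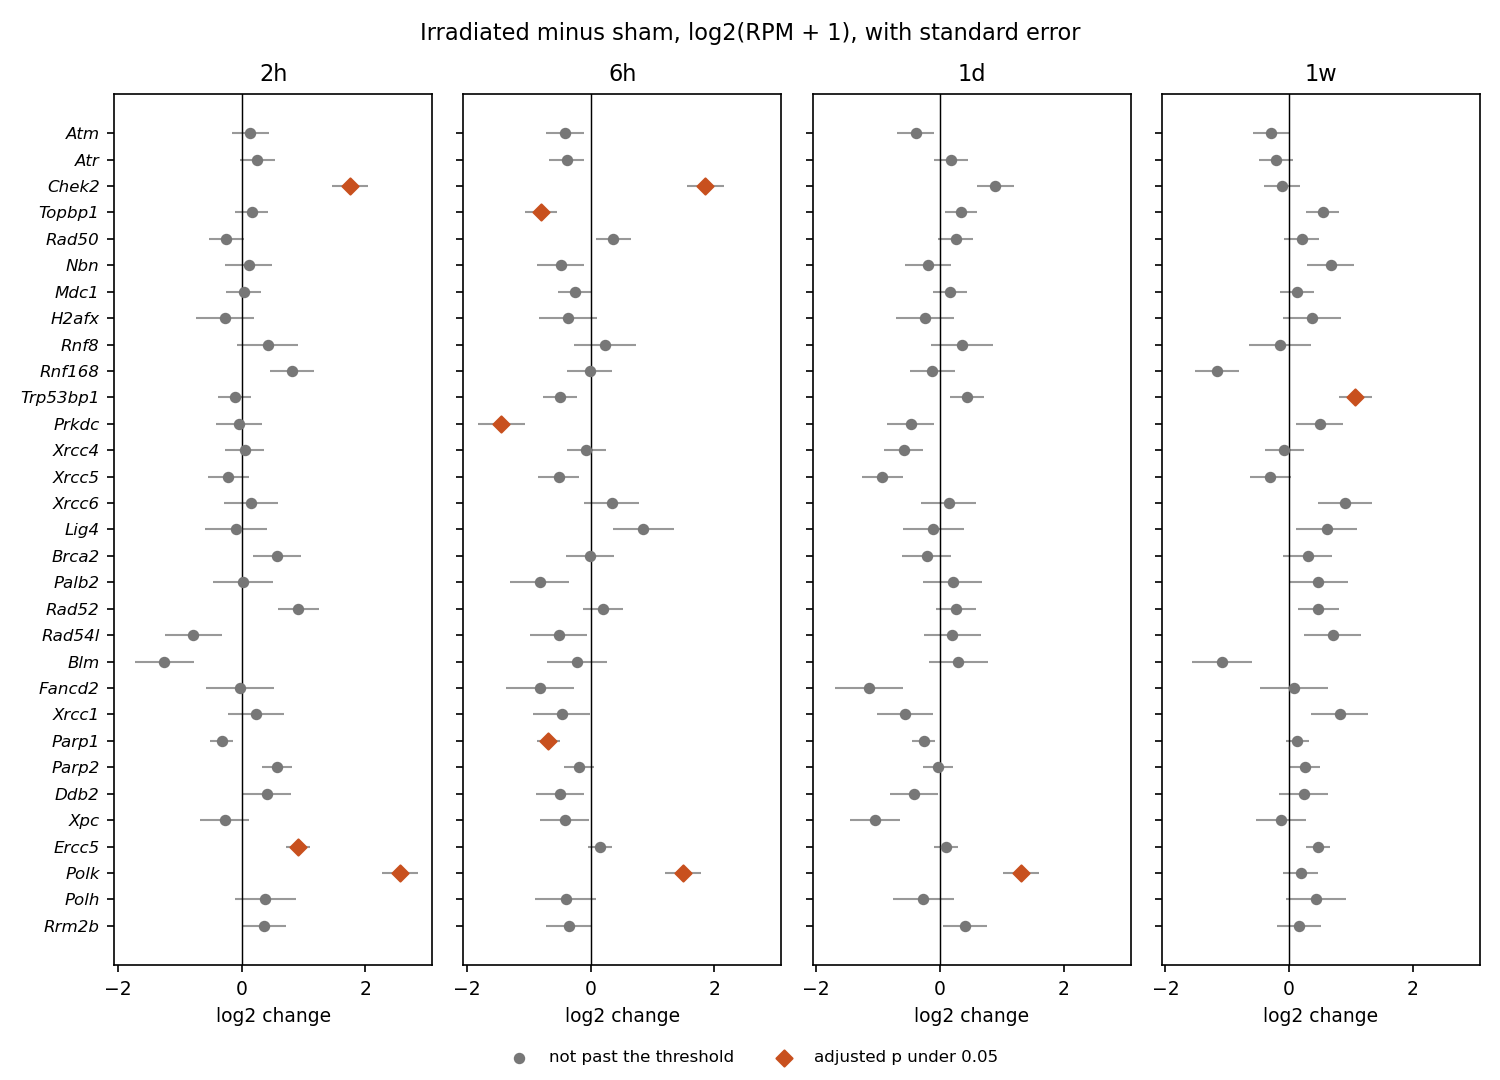
Log2 change in RPM + 1 (irradiated minus sham, x axis) of the 31 tested members (y axis) at 2h, 6h, 1d and 1w; bars are standard errors and diamonds mark an adjusted p under 0.05. Polk at 2h has the highest change of the panel (2.56), and most points are not past the threshold.

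Polk, the lesion bypass polymerase kappa (ENSMUSG00000021668, chromosome 13, minus strand), had the highest rise of the members at 2h. Sham libraries at 2h held 8.47 to 24.5 RPM of Polk (median 19) and irradiated libraries 70.7 to 129 RPM (median 101). The groups did not overlap at 2h, as for 3.04% of all genes on the higher side. The log2 change was 2.56 ± 0.29 (SE, limma, adjusted p = 1.36e-09). At 6h sham libraries held 9.28 to 35.8 RPM (median 22.2) and irradiated libraries 39.4 to 98.8 RPM (median 60.3), again without overlap (5.5% of all genes on the higher side). The change was 1.49 ± 0.29 (SE, limma, adjusted p = 1.05e-04), and 1.40 ± 0.38 (adjusted p = 0.0310) with sham libraries 5 and 6 alone. At 1d the ranges were 15.6 to 22.8 RPM in sham (median 18.7) and 25 to 92.8 RPM in irradiated mice (median 46.6), so that all irradiated libraries were higher, as for 2.49% of all genes. This was a change of 1.32 ± 0.29 (SE, limma, adjusted p = 0.00169). By 1w the groups overlapped, at 15 to 24.4 and 12.5 to 30.4 RPM, with a change of 0.19 ± 0.29 (adjusted p = 0.790).

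Other genes of lesion bypass and nucleotide supply did not follow Polk past the test. Polh, the bypass polymerase eta, was between 0 and 12.7 RPM in all 48 libraries, with log2 changes from -0.40 at 6h to 0.43 at 1w. Rrm2b, the p53-responsive subunit of ribonucleotide reductase, had changes of 0.36, -0.36, 0.40 and 0.16 at 2h, 6h, 1d and 1w, with groups that overlapped at each time (lowest adjusted p = 0.501). Against sham libraries 5 and 6 alone the 6h value was 0.04 for Rrm2b and -0.63 for Polh.

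Among the damage kinases and their partners, Chek2, the checkpoint kinase downstream of Atm (ENSMUSG00000029521, chromosome 5), rose at 2h and 6h. Its sham level at 2h was 10.5 to 54.2 RPM (median 20.8) and its irradiated level 53.1 to 146 RPM (median 63.9). The highest sham library lay above the lowest irradiated one, and 5 of 6 irradiated libraries were above all sham libraries. The log2 change at 2h was 1.75 ± 0.29 (SE, limma, adjusted p = 1.57e-05). At 6h Chek2 was at 13.9 to 44.2 RPM in sham (median 23.9) and 70.2 to 113 RPM in irradiated mice (median 84.7). The groups did not overlap, as for 5.5% of all genes on the higher side. The change was 1.86 ± 0.29 (SE, limma, adjusted p = 4.17e-06), and 1.85 ± 0.40 (adjusted p = 0.00249) with sham libraries 5 and 6 alone. At 1d the groups overlapped, at 15.7 to 51.3 and 32.1 to 72.4 RPM, and a change of 0.90 ± 0.29 missed the threshold (adjusted p = 0.0578). It passed with voom weights (adjusted p = 0.0237) and without the 3 libraries under 1000000 reads (adjusted p = 0.0190). The highest sham value at 1d came from sham 1d library 6, the shallowest, with 175382 reads. At 1w sham libraries held 23.5 to 32.7 RPM and irradiated ones 18.8 to 35.9 RPM, a change of -0.12 ± 0.29.

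**Figure D2:**
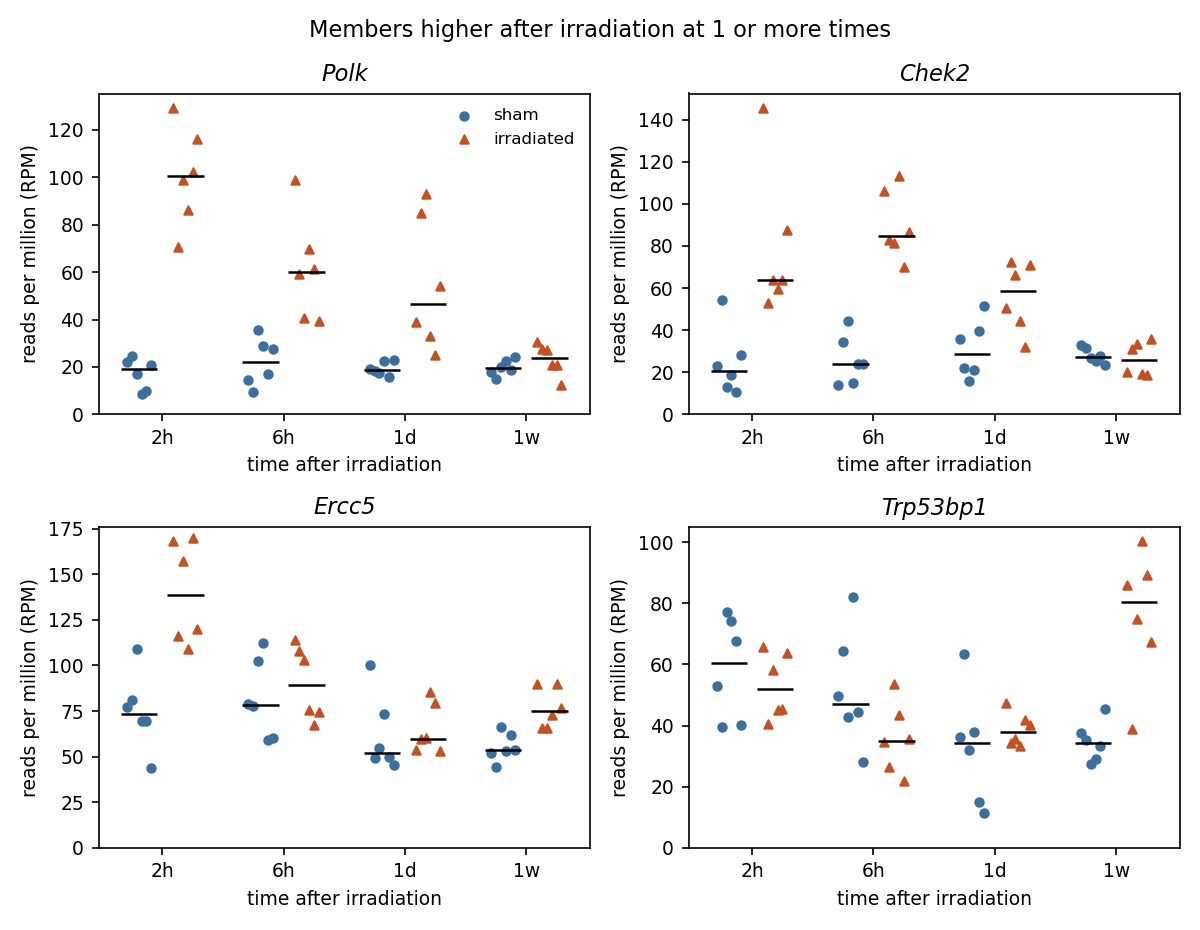
RPM (y axis) of Polk, Chek2, Ercc5 and Trp53bp1 in each library at 2h, 6h, 1d and 1w (x axis); circles are sham, triangles irradiated, lines medians of 6. Polk and Chek2 are high in irradiated libraries at 2h and 6h, Ercc5 at 2h and Trp53bp1 at 1w (median 80.5 against 34.3 RPM).

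The kinases above Chek2 did not pass the test at any time. Atm had log2 changes of 0.14, -0.42, -0.39 and -0.29 at 2h, 6h, 1d and 1w, and Atr 0.26, -0.39, 0.18 and -0.21 (lowest adjusted p of the pair, 0.322). Against sham libraries 5 and 6 alone the 6h value was 0.24 ± 0.40 for Atm and -0.21 ± 0.40 for Atr. Chek1, the kinase downstream of Atr, had 116 reads in all 48 libraries together and was not tested. Topbp1, the activator of Atr, held 21.6 to 36.2 RPM in sham 6h libraries (median 29.7) and 8.19 to 25.2 RPM in irradiated ones (median 18.7). Of the irradiated libraries, 5 of 6 were below all sham libraries. Topbp1 fell by 0.81 ± 0.26 on the log2 scale (SE, limma, adjusted p = 0.0198), a call that ended when sham library 2, irradiated library 3 or irradiated library 4 was left out (adjusted p up to 0.0841). With sham libraries 5 and 6 alone the value was -0.54 ± 0.38 (adjusted p = 0.761).

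In nucleotide excision repair, Ercc5 (ENSMUSG00000026048, chromosome 1), the endonuclease that cuts on the 3′ side of a bulky lesion, rose at 2h. Sham libraries held 43.7 to 109 RPM (median 73.4) and irradiated libraries 109 to 170 RPM (median 139), with 5 of 6 irradiated libraries above all sham libraries. The log2 change was 0.92 ± 0.19 (SE, limma, adjusted p = 5.98e-04). At 6h the change was 0.15 ± 0.19 (adjusted p = 0.609), or 0.56 ± 0.27 (adjusted p = 0.448) against sham libraries 5 and 6 alone, at 1d 0.10 ± 0.19 and at 1w 0.47 ± 0.19 (adjusted p = 0.172). Ddb2 and Xpc, which recognise such lesions and are p53 targets in human cells, did not pass the test at any time. Ddb2 was at 18 to 90.6 RPM in sham and 22.7 to 79.4 RPM in irradiated mice at 2h, a change of 0.42 ± 0.39 (adjusted p = 0.592). Ddb2 shares 2527 positions with Acp2 on the other strand, a gene with 34956 reads here beside 3884 for Ddb2, and the strand setting of the counting is not given in the sources used here. Xpc at 1d held 5.7 to 33.0 RPM in sham and 0 to 20.8 RPM in irradiated mice, a change of -1.05 ± 0.40 (adjusted p = 0.119). That value passed with voom weights (-1.67, adjusted p = 0.0262) and without the 3 libraries under 1000000 reads (-1.32, adjusted p = 0.0370). The lowest sham value of Xpc at 1d came from sham 1d library 6, the shallowest, with 175382 reads.

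Of the 7 genes of break sensing and chromatin signalling, Trp53bp1 (ENSMUSG00000043909, chromosome 2), whose protein shields broken ends and favours end joining, rose at 1w. Sham libraries held 27.5 to 45.5 RPM (median 34.3) and irradiated libraries 39.0 to 101 RPM (median 80.5), with 5 of 6 irradiated libraries above all sham libraries. The log2 change was 1.07 ± 0.27 (SE, limma, adjusted p = 0.0154), and -0.11, -0.50 and 0.44 at 2h, 6h and 1d did not pass. The 6h value was -0.04 ± 0.38 against sham libraries 5 and 6 alone. Trp53bp1 shares 5490 positions with Tubgcp4 on the other strand, which had 2469 reads beside its 5164. Tubgcp4 had a change of 0.21 ± 0.32 at 1w (adjusted p = 0.789).

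Rnf168, the ubiquitin ligase that marks chromatin for Trp53bp1, had the opposite sign at 1w. It was at 21.2 to 77.6 RPM in sham (median 27.8) and 6.14 to 33.7 RPM in irradiated mice (median 13.4), with 5 of 6 irradiated libraries below all sham libraries. The change of -1.16 ± 0.36 missed the threshold (limma, adjusted p = 0.0503). It passed with voom weights (-1.27, adjusted p = 0.0154) and without the 3 libraries under 1000000 reads (adjusted p = 0.0447). Rad50, Nbn, Mdc1, H2afx and Rnf8 did not pass at any time, with changes between -0.49 and 0.67. Against sham 6h libraries 5 and 6 alone their 6h values were 0.05, 0.14, 0.36, -1.05 and -0.51 in that order, none past the threshold. H2afx, the histone variant marked at breaks, was low in these libraries, at 0 to 18.2 RPM. Rnf8 shares most of its span with Gm28043 on the same strand, so its reads are uncertain.

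Within end joining, Prkdc, the DNA-dependent protein kinase bound to broken ends (ENSMUSG00000022672, chromosome 16), fell at 6h against all 6 sham libraries. Its sham level was 21.6 to 92.9 RPM (median 66.0) and its irradiated level 14.2 to 33.5 RPM (median 17.7), with 4 of 6 irradiated libraries below all sham libraries. The log2 change was -1.45 ± 0.38 (SE, limma, adjusted p = 0.00363). Sham libraries 1 to 4 held 61.4 to 92.9 RPM, and sham libraries 5 and 6 held 21.6 and 46.9 RPM. Against libraries 5 and 6 alone the change was -0.64 ± 0.53 (adjusted p = 0.837). Xrcc4, Xrcc5, Xrcc6 and Lig4 did not pass at any time. Of these, Xrcc5, a Ku subunit that binds broken ends, came nearest at 1d, with 11.6 to 28.8 RPM in sham and 4.34 to 20.4 RPM in irradiated mice (-0.93 ± 0.33, adjusted p = 0.0909). Nhej1 had 150 reads over the 48 libraries and was not tested.

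In single-strand break repair, Parp1, the polymerase that senses nicks and builds poly(ADP-ribose) (ENSMUSG00000026496, chromosome 1), also fell at 6h. Sham libraries held 98.9 to 210 RPM (median 141) and irradiated libraries 59.3 to 102 RPM (median 93.0), with 4 of 6 irradiated libraries below all sham libraries. The log2 change was -0.69 ± 0.19 (SE, limma, adjusted p = 0.00491). Sham libraries 1 to 4 were at 133 to 210 RPM and sham libraries 5 and 6 at 116 and 98.9 RPM. Against the latter alone the change was -0.30 ± 0.25 (adjusted p = 0.852). Parp2 and the scaffold Xrcc1 did not pass at any time, with changes from -0.57 to 0.82.

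**Figure D3:**
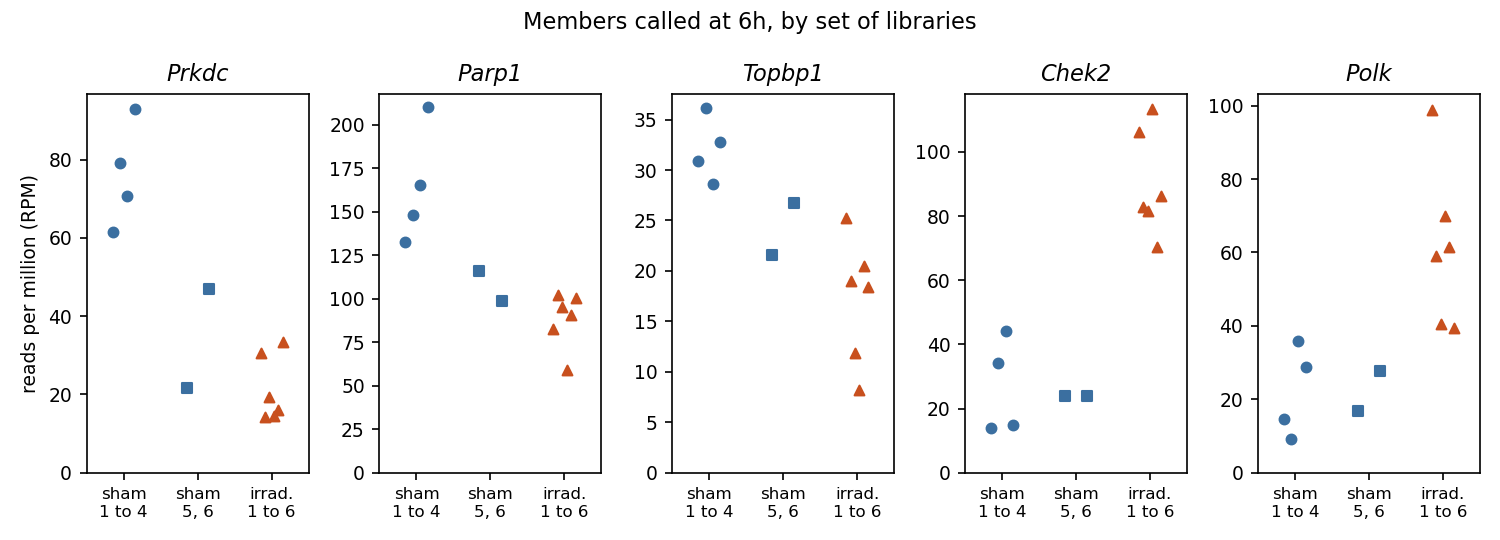
RPM at 6h (y axis) of the 5 members called at 6h, in sham libraries 1 to 4 (circles), sham libraries 5 and 6 (squares) and the 6 irradiated libraries (triangles). Prkdc is at 61.4 RPM or more in sham 1 to 4 and at 21.6 and 46.9 RPM in sham 5 and 6, whereas Chek2 and Polk are below the irradiated libraries in both sham sets.

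The 3 falls at 6h were thus called with sham libraries 1 to 4 but not with sham libraries 5 and 6 alone. The rises of Chek2 and Polk were called with both sets. A fit with 2 sham libraries has larger standard errors, for Prkdc 0.53 against 0.38 with all 6, so a lost call can reflect fewer libraries. The difference between the sham sets was not tested. With sham libraries 5 and 6 alone, 2 of 31 members were called, both higher, where 2.42% of all genes were called. With sham libraries 1 to 4 alone, the same 5 members were called as with all 6, where 33.6% of all genes were called. At 6h other cell type markers also differed between groups. The 7 neural progenitor markers summed to 36.1 to 70.7 RPM in irradiated libraries and 5.62 to 31.1 RPM in sham libraries, with 2 of them at 0 in all irradiated libraries. Only 1 of these 7 markers was abundant enough for testing. The 6 perivascular macrophage markers summed to 36.5 to 77.6 RPM in irradiated and 107 to 172 RPM in sham libraries. Sham libraries 5 and 6 lay with the other sham libraries on both sums. On other sums they did not. The astrocyte markers summed to 11.4 to 24.6 RPM in sham libraries 1 to 4, 39.5 and 36.1 RPM in sham libraries 5 and 6, and 33.7 to 69.5 RPM in irradiated libraries. The oligodendrocyte markers were at 57.7 to 105, 127 and 123, and 74.5 to 125 RPM in the same order, and the monocyte and neutrophil markers at 12.5 to 21.9, 30.03 and 29.1, and 17.2 to 51.9 RPM. The part of these markers in the 6h values was not tested.

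No gene of homologous recombination passed the test, and 1 that was not tested had higher reads at 1w in every irradiated library. Brca1, which promotes resection of broken ends, had 350 reads in all 48 libraries together. It reached 5 RPM in 4 libraries, where the filter asks for 6. At 1w the sham libraries held 0 to 5 Brca1 reads (0 to 1.67 RPM) and the irradiated libraries 6 to 197 reads (2.05 to 78.6 RPM, median 5). All 6 irradiated libraries were above all sham libraries, as for 2.18% of the genes tested. In the fit with no filter on low values, which called 0.922% of all genes at 1w, the Brca1 change at 1w was 2.66 ± 0.54 (limma, adjusted p = 0.00474). The highest Brca1 library, irradiated 1w library 4, was also highest in summed proliferation markers (1226 RPM) and in summed neuron markers (365 RPM, against at most 28.9 RPM in any other library). Of its proliferation sum, Tyms held 567 RPM and Mcm5 258 RPM, where the medians of the irradiated 1w libraries were 17.3 and 15.9 RPM. Without that library the irradiated range was 2.05 to 15.9 RPM, still above the sham range.

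Proliferation markers were higher as a sum in every irradiated library at 1w, at 321 to 1226 RPM against 218 to 294 RPM in sham. Of the 18 listed, 12 were tested and 3 rose at 1w, namely Top2a, Mcm5 and Mcm6 (2.07, 2.03 and 1.63 on the log2 scale). Their part in the 1w values of Brca1 and Trp53bp1 was not tested. Trp53bp1 remained called at 1w without irradiated library 4, as it did without each other 1w library (adjusted p up to 0.0487).

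**Figure D4:**
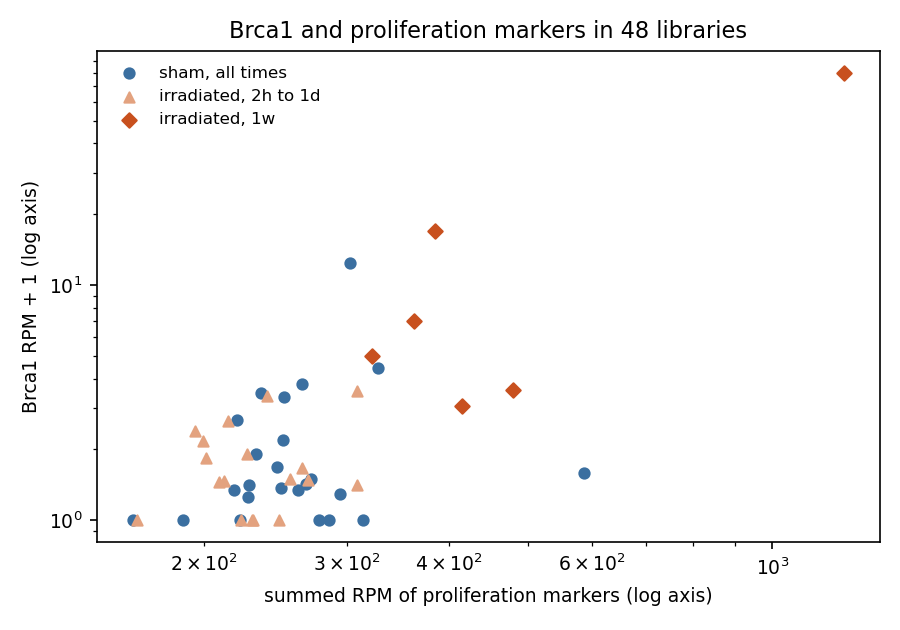
Brca1 RPM + 1 (y axis, log) against the summed RPM of 18 proliferation markers (x axis, log) in 48 libraries; circles are sham, triangles irradiated at 2h to 1d, diamonds irradiated at 1w. The 6 irradiated 1w libraries lie at 321 RPM or more on the x axis, with library 4 at the top right (78.6 RPM of Brca1). Of the sum in library 4, Tyms held 567 RPM and Mcm5 258 RPM.

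The other recombination genes gave smaller or less certain values. Rad52, a strand annealing protein, was at 8.78 to 16.3 RPM in sham and 13.2 to 36.8 RPM in irradiated mice at 2h (0.92 ± 0.33, limma, adjusted p = 0.0589). Blm, a helicase that dissolves recombination intermediates, was at 3.26 to 8.37 RPM in sham and 0.454 to 3.6 RPM in irradiated mice at 2h (-1.25 ± 0.48, adjusted p = 0.0865). Both passed at 2h without the 3 libraries under 1000000 reads (adjusted p = 0.0485 for Rad52 and 0.0476 for Blm). Rad52 also passed with a minimum of 20 RPM (0.0493) and with median-of-ratios scaling (0.0431), and Blm with quantile normalization (0.0460), a replicate block (0.0457) and the 12 libraries of 2h alone (0.0496). Brca2, Palb2 and Rad54l had changes between -0.82 and 0.71. Against sham 6h libraries 5 and 6 alone the 6h values were -0.19 for Brca2, -0.07 for Palb2, -0.85 for Rad54l and -0.09 for Fancd2. In crosslink repair, Fancd2 had 306 reads in all and changes between -1.14 at 1d and 0.08 at 1w that did not pass, and Fanci, its partner, had 117 reads and was not tested.

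Whether the effect of irradiation differed between times was tested in the same fit. Over the 4 times, the effect differed for 6 of 31 members, where it differed for 22.7% of all genes: Polk (limma F test, adjusted p = 3.41e-04), Chek2 (9.75e-04), Trp53bp1 (0.00981), Topbp1 (0.0223), Rnf168 (0.0237) and Prkdc (0.0311). With sham 6h libraries 5 and 6 alone only Polk and Chek2 remained. Leaving out single libraries ended the call for Rnf168 (SH 1w library 6 or IR 1w library 5, adjusted p up to 0.0551), Topbp1 (IR 6h library 4, 0.0639) and Prkdc (9 of 48 fits, up to 0.0647). With no filter on low values the same 3 were lost (0.0625 for Rnf168, 0.0580 for Topbp1 and 0.0824 for Prkdc), and with recomputed span RPKM Rnf168 was lost (0.0536). Between adjacent times no member passed, at 6h minus 2h (10.8% of all genes called), 1d minus 6h (5.16%) or 1w minus 1d (5.99%). Without the adjustment 5, 3 and 5 members had p under 0.05, and with voom weights 1 member passed at each of the 3 steps. The shares of all genes for these counts were not counted. The Polk effect at 1w was lower than at 1d by -1.13 ± 0.41 (adjusted p = 0.0864), and the Chek2 effect by -1.02 ± 0.42 (adjusted p = 0.134). The Ercc5 effect at 6h minus that at 2h was -0.76 ± 0.28 (adjusted p = 0.0625).

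Many of these genes begin next to another protein-coding gene that is read in the opposite direction. Such a neighbour, with starts at most 1000 bp apart or overlapping by up to 200 bp, was present for 13 of the 35 members (37.1%). It was present for 1325 of 9996 tested protein-coding genes (13.3%), whereas the 35 include the 4 members not tested. The start of Polk lies 133 bp from that of Col4a3bp, a ceramide carrier. At 2h Col4a3bp was at 29.97 to 51.3 RPM in sham and 24.3 to 55.6 RPM in irradiated mice, a log2 change of 0.01 ± 0.24 beside 2.56 for Polk. At 6h Col4a3bp fell by 0.76 ± 0.24 (limma, adjusted p = 0.0161) against all 6 sham libraries. Against sham libraries 5 and 6 alone the value was -0.47 ± 0.34 (adjusted p = 0.783).

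Chek2 starts 202 bp from Hscb, a chaperone of iron-sulfur cluster assembly, and the Chek2 sequence printed above spans the stretch between them. Hscb changed by -0.03 ± 0.34 at 2h and 0.68 ± 0.34 at 6h (adjusted p = 0.134), and rose by 1.06 ± 0.34 at 1d (limma, adjusted p = 0.0488). Prkdc starts 466 bp from Mcm4, a subunit of the replicative helicase. Mcm4 had changes of -0.24, -0.80, -0.82 and 1.00 at 2h, 6h, 1d and 1w, and Prkdc -0.04, -1.45, -0.48 and 0.49. None of the Mcm4 values passed (lowest adjusted p = 0.173). Against sham libraries 5 and 6 alone the 6h value was 0.58 ± 0.47 for Hscb and -0.47 ± 0.62 for Mcm4. The difference between a gene and its neighbour was not tested.

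**Figure D5:**
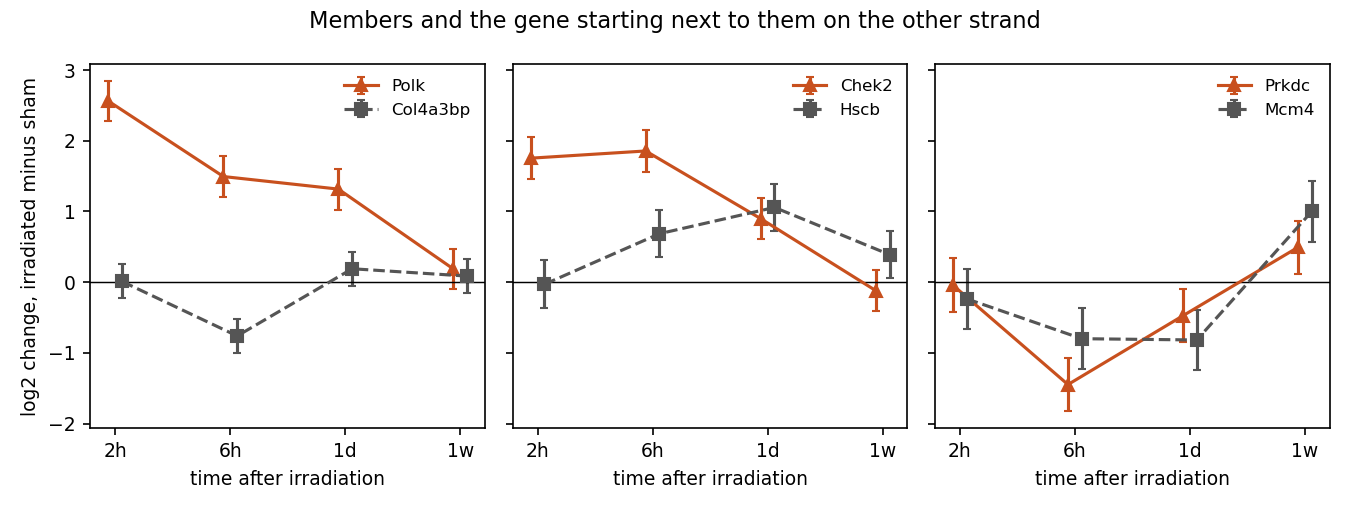
Log2 change, irradiated minus sham (y axis), of Polk, Chek2 and Prkdc (triangles) and of the gene that starts next to each on the other strand (squares) at 2h, 6h, 1d and 1w (x axis), with standard errors. Polk and Chek2 are at 2.56 and 1.75 at 2h, where Col4a3bp and Hscb are near 0.

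The wider set of repair genes, 125 others listed by pathway, had 101 tested members. At 2h, 3 of them rose and 1 fell, at 6h 8 rose and 6 fell, at 1d 4 rose and 3 fell, and at 1w 1 rose and 1 fell. Of all genes tested, 11.0%, 23.9%, 5.9% and 4.16% were called at these times, so the shares of the 101 were near or below those. None of the 10 tested checkpoint genes, such as those of the clamp that activates Atr, was called at any time. Without the adjustment 1 had p under 0.05 at 2h, 6h and 1d, and 2 at 1w, with no share of all genes counted at that level. Of 12 tested genes of break sensing, Rnf169, a reader of damage-marked chromatin, rose at 2h, 6h and 1d. Its sham level at 2h was 181 to 234 RPM (median 201) and its irradiated level 265 to 501 RPM (median 383). The groups did not overlap, as for 3.04% of all genes on the higher side. The log2 changes were 0.88 ± 0.17, 1.5 ± 0.17 and 1.08 ± 0.17 (limma, adjusted p = 2.55e-04, 2.82e-09 and 1.43e-05). At 6h the next of that list was Rif1, a partner of Trp53bp1, with -0.93 ± 0.27 (adjusted p = 0.00928).

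In mismatch repair, Msh6, a subunit of the mismatch sensor, rose at 2h, with 28.0 to 63.4 RPM in sham (median 42.9) and 70.7 to 139 RPM in irradiated mice (median 104). Its changes were 1.23 ± 0.21 at 2h (limma, adjusted p = 2.19e-05), 0.62 at 6h and 0.74 at 1d. Msh3, which pairs with the same partner, fell by 1.83 ± 0.46 at 6h (adjusted p = 0.00245). In direct reversal, Mgmt, which removes alkyl groups from guanine, rose at 6h, with 5.2 to 8.06 RPM in sham and 29.9 to 71.0 RPM in irradiated mice (2.86 ± 0.56, adjusted p = 1.14e-04). At 1w Mgmt rose by 2.06 ± 0.56 (adjusted p = 0.0221), with overlapping groups. Alkbh3, a demethylase of alkylated bases, rose at 6h by 0.81 ± 0.23 (adjusted p = 0.00677). In nucleotide excision repair, Gtf2h2, a subunit of the helicase complex TFIIH, fell by 0.95 ± 0.16 at 6h (adjusted p = 1.47e-05) and by 0.52 ± 0.16 at 1d (adjusted p = 0.0434). All irradiated libraries were below all sham libraries at both times. At 6h the margin was small, with the highest irradiated library at 249 RPM and sham library 6 at 251 RPM. The share of all genes without overlap on the lower side was not counted. Samhd1, which degrades nucleotides, fell by 0.64 ± 0.17 at 2h and by 0.58 ± 0.17 at 6h (adjusted p = 0.00626 and 0.00834). Parp3 rose at 6h by 1.12 ± 0.29 (adjusted p = 0.00317). In recombination, Rbbp8, a cofactor of end resection, rose by 1.25 ± 0.41 at 2h (adjusted p = 0.0354), and Dna2, a resection nuclease, by 1.92 ± 0.52 at 1d (adjusted p = 0.0151). In crosslink repair the nuclease Fan1 rose by 1.65 ± 0.49 at 1d (adjusted p = 0.0325). The other calls at 6h were rises of Babam1, Bre and Mus81 (1.00, 0.67 and 1.25) and falls of Bard1 and Xpa (-1.23 and -1.45), with adjusted p of 0.0252 to 0.0457. At 1d Bard1, the partner of Brca1, fell by 1.57 ± 0.46 (adjusted p = 0.0297). At 1w Ube2b, a ubiquitin conjugase of lesion bypass, fell by 0.66 ± 0.19 (adjusted p = 0.0333). With sham libraries 5 and 6 alone, only Rnf169 of the 101 was called at 6h (1.14 ± 0.24, adjusted p = 0.00175). Mgmt had 2.68 ± 0.82 there (adjusted p = 0.0736). Babam1 turned to -0.23 ± 0.45, being at 10.5 to 19.5 RPM in sham libraries 1 to 4 and at 41.4 and 67.0 RPM in sham libraries 5 and 6. Mus81 was at 0.17, Bre at 0.42, Msh6 at 0.38, Parp3 at 0.67 and Alkbh3 at 0.51. Of those that had fallen, Gtf2h2 was at -0.29, Rif1 at -0.36, Xpa at -0.58, Samhd1 at -0.63, Bard1 at -1.05 and Msh3 at -1.36.

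The 35 genes differed widely in how well they could be measured. Per kilobase of gene span, introns included, the median level over 48 libraries of the tested members ran from 0.0236 RPKM for Xrcc4 to 3.79 RPKM for Parp2. A minimum of 1 RPKM in 6 libraries, recomputed from the reads, was met by 13 members, and the other 18 tested members entered through a minimum of 5 RPM. Trp53bp1, Prkdc and Topbp1 were among those 18. The span of 18 of the 35 members, introns included, shares positions with another annotated gene, a protein-coding one for 9. Reads at such positions are less certain, though some of the overlapping genes had 0 reads, such as Gm44335 at H2afx. Xrcc6 shares 41340 positions with Desi1 on the other strand, which had 5084 reads beside 1764 for Xrcc6.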

How the data were processed

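The authors deposited RPKM values for 48 libraries, made from QIAseq FX single cell RNA libraries per the labels' protocols. Per the submitters' processing notes, featureCounts 1.5.1 and STAR 2.6.1d were used, beside FastQC 0.11.8 and bcl2fastq 2.20.0, and the builds are GRCm38 and mm10. The annotation and the strand setting are not given in the sources used here. Each deposited RPKM times gene span (start to end) gave whole reads once divided by the right total, and in only 2.05% of values was that the total of the same library. The ratio of deposited to recomputed value ran from 0.436 (5th percentile) to 3.11 (95th). All 719081 values above 0 came out whole (tolerance 0.001 reads), and 95 genes of at most 16 reads, no member among them, stayed ambiguous.

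Reads were rescaled to RPM and tested as log2(RPM + 1) with limma 3.58.1 (R 4.3.3; trend, robust; 8 group means, 40 residual degrees of freedom), over 11076 genes with at least 5 RPM in 6 libraries. Fold changes on this scale understate low genes. Tests were two-sided, with Benjamini-Hochberg adjustment over all genes and a threshold of 0.05. Promoters were read from RefSeq (GRCm38.p6) and overlaps from GENCODE. Every member past the threshold is named, as are genes of the other lists that passed it, and Cdkn1a. 1 of the other listed genes is counted but not reported here. The members and lists were chosen with earlier results of these data known. Alternatives were other pseudocounts, filters, scalings, voom weights, a replicate block, leaving out libraries, and the RPKM as deposited. The code was tested on simulated data.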

Additional observations from a re-analysis of the deposited data

Results flagged for a closer look

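In 25 of 248 groups of 6 libraries (31 tested members, 8 groups) 1 library lay far from the other 5, its gap to the nearest being above the 95% critical value of Dixon's test. For normally distributed values chance gives about 1 in 20 groups. The test was run on RPM without a log scale, and most flagged libraries were high ones, so the count cannot be read as an excess. Rnf168 had 4 of the 25, each a high library: 25.2 RPM in SH 2h library 3, 103 RPM in IR 2h library 3 (nearest 26.6 RPM), 77.6 RPM in SH 1w library 6 and 33.7 RPM in IR 1w library 3. In the sham 6h group the high values were Atm at 56 RPM (library 2), Atr at 77.9 RPM and Xrcc5 at 65.6 RPM (both library 4, which held under 1000000 reads), Xrcc4 at 12.8 RPM (library 1), and Xrcc6 at 28.1 RPM and Brca2 at 11.7 RPM (both library 6). In the irradiated 6h group they were Rad50 at 42.1 RPM (library 6) and Blm at 18.3 RPM (library 5).

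At 2h, Chek2 was at 146 RPM in irradiated library 1, where the next was 87.4 RPM. Without that library Chek2 was still called at 2h. Fancd2 was at 16.1 RPM in irradiated library 6 and 5.38 RPM in sham library 6, Brca2 at 20.3 RPM in sham library 6 and Lig4 at 27.2 RPM in sham library 5. At 1d, Rad54l (15.4 RPM) and Rrm2b (14.8 RPM) were high in irradiated library 6, Rad52 (29.7 RPM) in sham library 3, and Atr was low in sham library 1 (29.1 RPM). At 1w, Topbp1 (48.2 RPM) was high in sham library 3, Rnf8 in sham library 5 (33.7 RPM) and irradiated library 3 (44.1 RPM), and Rad52 (48.2 RPM) in irradiated library 6.

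The effect of irradiation differed over the 4 times for 6 members by the limma F test, with adjusted p of 3.41e-04 for Polk, 9.75e-04 for Chek2, 0.00981 for Trp53bp1, 0.0223 for Topbp1, 0.0237 for Rnf168 and 0.0311 for Prkdc.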

How the results depend on the processing

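The rises of Polk and Chek2 at 2h and 6h, of Ercc5 at 2h and of Polk at 1d passed in each alternative that tested them, except with the RPKM as deposited, where only Polk at 2h passed. Trp53bp1 at 1w was lost with the RPKM as deposited and not tested with span RPKM. No member called against all libraries changed sign. With those values 1 member was called at 2h and 0 at 6h, 1d, 1w and over the 4 times. With recomputed span RPKM, whose filter tests fewer genes, 3 members were called at 6h, 0 at 1w, 3 over the times and 1 at 6h minus 2h. With sham 6h libraries 5 and 6 alone, 2 were called at 6h and 2 over the times. With sham libraries 1 to 4 alone, 3 were called at 6h minus 2h and 2 at 1d minus 6h. A minimum of 20 RPM gave 4 members at 2h (Rad52 added), 2 at 1d, 2 at 1w, 1 at 6h minus 2h and 1 at 1d minus 6h. No filter gave 2 at 1w, 1 at 1w minus 1d and 4 over the times, where Rnf168, Topbp1 and Prkdc were lost and Brca1 was added. Median-of-ratios scaling and quantile normalization each gave 2 at 1w, 1 at 6h minus 2h and 1 at 1d minus 6h. Voom weights, which called 1053, 2786, 698 and 930 genes at the 4 times, gave 3 members at 1d, 2 at 1w and 1 at each step between times. Without the 3 libraries under 1000000 reads, 5 were called at 2h, 3 at 1d, 2 at 1w and 1 at 1w minus 1d. The shares of all genes called were not counted for most of these alternatives, nor for the fits below. The member counts therefore stand without them, and the cause of these moves was not tested.

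Leaving out 1 library at a time gave 3 to 4 members at 2h, 4 to 6 at 6h, 1 to 3 at 1d and 1 to 2 at 1w, and, in an alternative chosen after seeing the data, 4 to 8 over the times. In that F test the 9 fits that lost Prkdc were those without SH 6h library 2, 3 or 4, IR 6h library 2, 4 or 5, SH 1w library 4, or IR 1w library 1 or 5. Libraries share only a number: the correlation of same-numbered libraries was -0.172 to 0.171. With the replicate block 4 members were called at 2h (Blm added), 5 at 6h, 2 at 1d (Xpc added), 2 at 1w (Rnf168 added), 0 between adjacent times and 6 over the times. Depth limits the low genes: the tested Fancd2 had a median of 4 reads per library.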
